A study of Stylosanthes guianensis with 6 samples.

Results

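The 6 unigenes described here encode enzymes at the isoflavonoid end of phenylpropanoid metabolism in leaves of stylo (Stylosanthes guianensis), a tropical forage legume. They comprise 2 unigenes of vestitone reductase (VR), 2 of isoflavone 2'-hydroxylase (I2H) and 2 of 2-hydroxyisoflavanone dehydratase (HIDH), out of 102864 unigenes in the transcriptome assembly. They were chosen from the study's lists of genes that differed between the 2 treatments in these same libraries, so the differences between treatments given for them are a description and carry no test. Seedlings of the genotype TF303 were grown in nutrient solution for 30 d and were then kept for 10 d at a Mn supply of 5 μM, the control, or of 400 μM, termed Mn toxicity. Leaf RNA was sequenced as 3 libraries per treatment, each from its own hydroponic box of seedlings. All plants had the same genotype and the same nutrient solution, and the added MnSO4 set the treatments apart.

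Isoflavonoids are made mainly by legumes. HIDH, a protein of the carboxylesterase family, removes water from 2-hydroxyisoflavanones and so completes the isoflavone skeleton. I2H, a cytochrome P450 of the CYP81E type, adds a hydroxyl group to the B ring of isoflavones such as formononetin. In alfalfa, VR reduces vestitone shortly before the ring closure that gives the pterocarpan medicarpin, a phytoalexin, which is an antimicrobial compound that legumes accumulate on attack or stress.

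The names rest on sequence matches alone. TRINITY_DN56723_c0_g1 matched an HIDH protein of Medicago truncatula. TRINITY_DN48027_c2_g1 matched an HIDH mRNA of the same species, while its best protein match was annotated as unknown. TRINITY_DN44414_c1_g10 matched I2H of Glycyrrhiza echinata (CYP81E1), and TRINITY_DN46084_c0_g1 an I2H-like protein of chickpea. TRINITY_DN45162_c2_g1 and TRINITY_DN45126_c0_g2 matched VR-like proteins of soybean, isoforms X1 and X2. Below, the prefix TRINITY is left out of the IDs.

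The only sequences used here are the primers with which the study amplified HIDH DN56723_c0_g1, shown because they identify which HIDH unigene was followed by PCR. Both are 20 bases long and run 5′ to 3′, with a GC content of 55.0% for the forward and 50.0% for the reverse primer.
DN56723_c0_g1 forward: ccccagaaataagggcagca
DN56723_c0_g1 reverse: acgccaacggtgctaacata

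Values are RPKM, that is, reads relative to unigene length and to all mapped reads. The libraries held 31.1 to 37.8 M reads, and a single read on 1 kb of sequence corresponded to 0.0265 to 0.0321 RPKM. Mn toxicity replicates 1 and 3 stood apart from the other 4 libraries. In them 41 abundant unigenes took 46.1% and 60.2% of the summed RPKM, against 2.57 to 4.58% in the other 4. These were picked as abundant in some library and as strongly different in share between the libraries, so they only describe the contrast. The RPKM of all unigenes summed to 1.24 and 1.55 M in Mn toxicity replicates 1 and 3. The other 4 libraries had 0.877 to 0.923 M. Of 7 unigenes listed here for photosynthetic leaf tissue all were above 0 in every library. The 4 of them described as chloroplast-encoded photosystem proteins summed to 53.8 to 101 RPKM in the control libraries, and to 877, 66.5 and 1557 RPKM in Mn toxicity replicates 1, 2 and 3. The other 3, which include the magnesium chelatase subunit of chlorophyll synthesis, summed to 1143 to 1184 RPKM in the control libraries and to 353, 713 and 278 RPKM in those replicates. Among these 3, DN47011_c1_g5 and DN46297_c2_g1 are described only as hypothetical proteins. The part of these shifts in the values of the 6 unigenes was not tested. Therefore the Mn toxicity values of the 6 unigenes are also given after median-of-ratios scaling, which divides a library by the median ratio of its unigenes to their geometric mean over all libraries and moved the median log2 fold change over the tested unigenes from -0.20 to nearly 0. In bulk leaf RNA, more cells that express a gene and more of its RNA per cell cannot be told apart.

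All 6 unigenes were higher in each of the 3 Mn toxicity libraries than in any control library. Of 30913 tested unigenes, 9.41% showed such a separation upwards. The log2 fold changes of the 6 ran from 0.62 to 1.58 with a median of 1.04, while the median over all tested unigenes was -0.20. By limma, I2H DN44414_c1_g10 and VR DN45162_c2_g1 passed the adjusted p of 0.05 and the 2-fold limit, that is 2 of 6 unigenes, and the other 4 did not. With any 1 control library or Mn toxicity replicate 1 left out, 0 of 6 passed, and 3 of 6 when replicate 2 or 3 was missing. Over all tested unigenes the former fits called 148 to 213 higher, and those without replicates 2 and 3 called 802 and 1748. With all 6 libraries the same limits called 2.09% of all tested unigenes higher and 5.78% in either direction. Since the unigenes were selected by this contrast, nothing is read from these counts and shares.

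**Figure D1:**
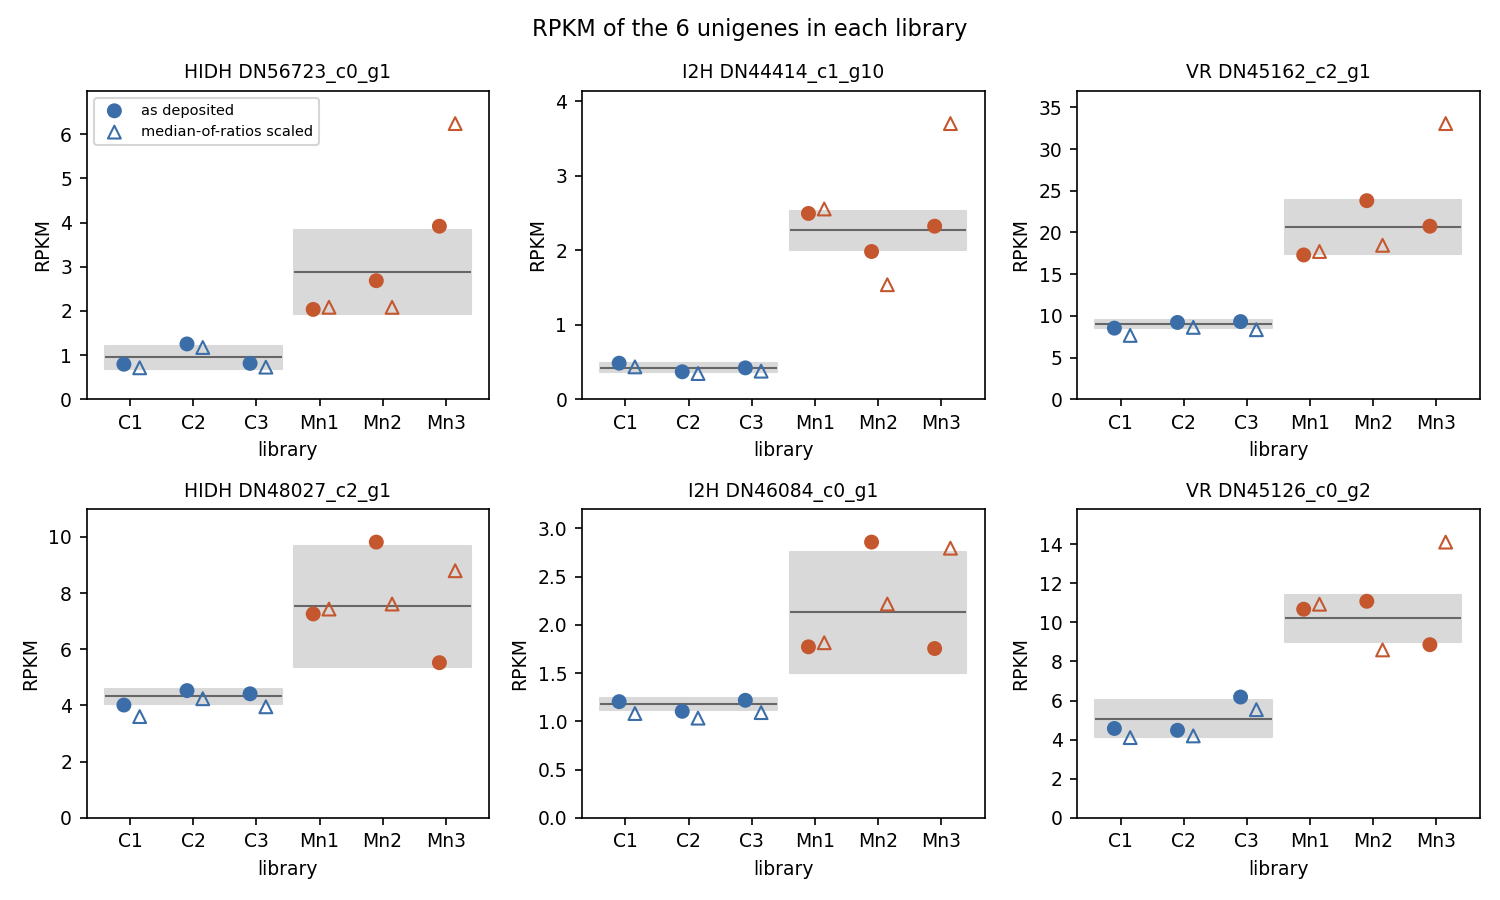
RPKM (y axis, from 0) of the HIDH, I2H and VR unigenes in control libraries C1 to C3 and Mn toxicity libraries Mn1 to Mn3 (x axis), as deposited (filled circles) and after median-of-ratios scaling (open triangles). Lines and grey bands are the mean and SD of the deposited values (n = 3 per treatment). No Mn toxicity point falls to the control level in any panel, and scaling lifts the point of Mn toxicity replicate 3 in each.

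HIDH DN56723_c0_g1, a unigene of at least 1184 bp, stood at 0.795, 1.25 and 0.814 RPKM in control replicates 1, 2 and 3, and at 2.04, 2.69 and 3.92 RPKM in Mn toxicity replicates 1, 2 and 3. The groups did not overlap, and replicate 3 was the highest Mn toxicity library. The means were 0.954 ± 0.260 and 2.88 ± 0.957 RPKM (SD, n = 3), 3.02-fold apart, and the log2 fold change was 1.19 (SE 0.32). At this shortest fitting length the control values rest on 34, 55 and 30 reads and the Mn toxicity values on 91, 115 and 175 reads. After scaling the Mn toxicity values were 2.08, 2.08 and 6.24 RPKM, so that replicate 3 then lay far above the other two. The second HIDH unigene, DN48027_c2_g1 (at least 1186 bp), had 4.01, 4.53 and 4.42 RPKM in the control libraries and 7.26, 9.82 and 5.52 RPKM under Mn toxicity. Here replicate 3 was the lowest Mn toxicity library, at 1.22 times the highest control value. The means were 4.32 ± 0.270 and 7.53 ± 2.16 RPKM (SD, n = 3), a ratio of 1.74 with a log2 fold change of 0.70 (SE 0.27). Scaling brought the 3 Mn toxicity values of DN48027_c2_g1 together, at 7.43, 7.61 and 8.80 RPKM against 3.60 to 4.24 RPKM in the control, and the log2 fold change became 0.93 (SE 0.12).

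I2H DN44414_c1_g10 (at least 1826 bp) had the largest fold change of the 6. It stood at 0.485, 0.370 and 0.422 RPKM in the control libraries and at 2.49, 1.98 and 2.32 RPKM under Mn toxicity. The lowest Mn toxicity library was 4.09 times the highest control library, and the 3 Mn toxicity libraries lay close to each other as deposited. After scaling they were spread more widely, at 2.55, 1.54 and 3.70 RPKM against 0.346 to 0.436 RPKM in the control. The means were 0.426 ± 0.0579 and 2.27 ± 0.260 RPKM (SD, n = 3), 5.33-fold apart, with a log2 fold change of 1.58 (SE 0.28). On the log2(RPKM + 0.5) scale the change of so weakly expressed a unigene is understated. At the shortest fitting length its control reads were few, 32, 25 and 24. They made 81 in all (exact 95% Poisson interval 64.3 to 100.7), against 463 reads in the Mn toxicity libraries (421.8 to 507.2). These intervals cover counting error only and hold for that length, as a longer unigene would mean more reads. The second I2H unigene, DN46084_c0_g1 (at least 2689 bp), was 1.20, 1.10 and 1.22 RPKM in the control libraries and 1.77, 2.86 and 1.76 RPKM under Mn toxicity. Replicate 2 was the highest of its Mn toxicity libraries, and the other two were nearly equal. The means were 1.18 ± 0.0623 and 2.13 ± 0.632 RPKM (SD, n = 3), a ratio of 1.81. Its log2 fold change of 0.62 (SE 0.30) was the smallest of the 6 on the log2(RPKM + 0.5) scale. By ratio of means HIDH DN48027_c2_g1 was lower, at 1.74. With a pseudocount of 0.1 the log2 fold changes were 0.77 for this I2H unigene and 0.75 for HIDH DN48027_c2_g1. After scaling, its highest Mn toxicity library was replicate 3 at 2.80 RPKM, with 1.82 and 2.22 RPKM in replicates 1 and 2.

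VR DN45162_c2_g1 (at least 1324 bp) was the most abundant of the 6 in every library. Its values were 8.53, 9.22 and 9.32 RPKM in the control libraries and 17.3, 23.8 and 20.7 RPKM under Mn toxicity. All Mn toxicity libraries were at least 1.86 times the highest control library. The means were 9.02 ± 0.428 and 20.6 ± 3.25 RPKM (SD, n = 3), 2.29-fold apart, with a log2 fold change of 1.14 (SE 0.22). VR DN45126_c0_g2 (at least 1320 bp) had 4.57, 4.48 and 6.18 RPKM in the control libraries and 10.7, 11.1 and 8.86 RPKM under Mn toxicity. Control replicate 3 was its highest control library and Mn toxicity replicate 3 its lowest Mn toxicity library, still 1.43 times higher. The means were 5.08 ± 0.957 and 10.2 ± 1.18 RPKM (SD, n = 3), a ratio of 2.01, with a log2 fold change of 0.95 (SE 0.25). Scaled to the median of ratios, DN45162_c2_g1 had 17.7, 18.5 and 33.0 RPKM and DN45126_c0_g2 had 10.9, 8.59 and 14.1 RPKM in Mn toxicity replicates 1, 2 and 3. Replicate 3 was then the highest for both.

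After median-of-ratios scaling all 6 unigenes again separated the treatments, as did 22.7% of all tested unigenes upwards. Their log2 fold changes were then 0.81 to 1.74, and 4 of 6 passed the limits, the 2 above together with HIDH DN56723_c0_g1 and VR DN45126_c0_g2, against 4.37% of all tested unigenes called higher. On this scale I2H DN44414_c1_g10 and both VR unigenes were called whichever of the 6 libraries was left out, and HIDH DN56723_c0_g1 in 1 of these 6 fits, the one that lacked Mn toxicity replicate 2. These fits were added after the data were seen. Mn toxicity replicate 2 was the Mn toxicity library without the excess of abundant unigenes. In the RPKM as deposited, the 6 unigenes in it were 2.18 to 4.66 times their control mean. Its scaling factor was the largest of the 6 libraries, so scaling lowered these ratios. For VR DN45126_c0_g2, the lowest as deposited, the scaled value was 8.59 RPKM in replicate 2 against a scaled control mean of 4.61 RPKM. The rank of a unigene within its library does not depend on any scaling factor. I2H DN44414_c1_g10 was above 3.40 to 4.59% of the tested unigenes in the control libraries and above 25.6 to 46.9% under Mn toxicity. HIDH DN56723_c0_g1 was above 11.3 to 21.9% of them in the control and above 31.9 to 59.4% under Mn toxicity. For VR DN45162_c2_g1 these shares were 65.2 to 68.2% and 83.5 to 90.2%. For all 6 unigenes the ranks under Mn toxicity lay above those of the control without overlap, as they did for 21.5% of all tested unigenes.

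In the control libraries the mean RPKM, a level per length, fell in the order VR DN45162_c2_g1, VR DN45126_c0_g2, HIDH DN48027_c2_g1, I2H DN46084_c0_g1, HIDH DN56723_c0_g1 and I2H DN44414_c1_g10. The ranges of DN45126_c0_g2 and DN48027_c2_g1 overlapped, as did those of DN46084_c0_g1 and DN56723_c0_g1, and the other neighbours were apart. Under Mn toxicity the first 3 kept their places, with the same overlap between the second and the third. The other 3 came together, at means of 2.88, 2.27 and 2.13 RPKM for DN56723_c0_g1, DN44414_c1_g10 and DN46084_c0_g1, with overlapping ranges. By its mean, I2H DN44414_c1_g10, the least expressed of the 6 in the control, was no longer below the second I2H unigene, although it still was in Mn toxicity replicate 2.

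Each enzyme is represented here by 2 unigenes, and their levels can be compared within a library. Differences in scaling between libraries cancel in the ratio of their RPKM, and nearly so in the difference of log2(RPKM + 0.5) that was tested, which became -1.47 for HIDH, -0.36 for I2H and 0.88 for VR after median-of-ratios scaling. HIDH DN48027_c2_g1 was higher than DN56723_c0_g1 in 6 of 6 libraries, by 3.61 to 5.42 times in the control and by 3.57, 3.65 and 1.41 times in Mn toxicity replicates 1, 2 and 3. The mean difference of log2(RPKM + 0.5), DN56723_c0_g1 minus DN48027_c2_g1, was -1.50 ± 0.53 (SD, n = 6; exact two-sided sign-flip permutation p = 0.03125, 0.0469 after adjustment over the 3 enzymes). VR DN45162_c2_g1 was above DN45126_c0_g2 in 6 of 6 libraries, by 1.51 to 2.06 times in the control and 1.62 to 2.34 times under Mn toxicity, with a mean log2 difference of 0.88 ± 0.24 (SD, n = 6; exact permutation p = 0.03125, adjusted p = 0.0469). The p of 0.03125 is the smallest that 6 libraries can give, and with any 1 library left out the adjusted p was 0.0938 for both enzymes. The I2H pair had no such fixed order. DN44414_c1_g10 was 0.403, 0.335 and 0.346 times the level of DN46084_c0_g1 in control replicates 1, 2 and 3, and 1.41, 0.694 and 1.32 times in Mn toxicity replicates 1, 2 and 3. It was thus the lower unigene in every control library and in Mn toxicity replicate 2, and the higher one in Mn toxicity replicates 1 and 3, which are the libraries that stood apart. Over all libraries the mean log2 difference of -0.38 ± 0.60 (SD, n = 6) was not distinguished from 0 (exact permutation p = 0.15625, the same after adjustment). Of the summed level of the 2 I2H unigenes, DN44414_c1_g10 made up 25.1 to 28.7% in the control and 41.0 to 58.5% under Mn toxicity. These ranges did not overlap, which the choice of DN44414_c1_g10 from genes that differed favours. How often other pairs of unigenes separate in this way was not computed. The ranges of the HIDH and VR ratios did overlap between the treatments.

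**Figure D2:**
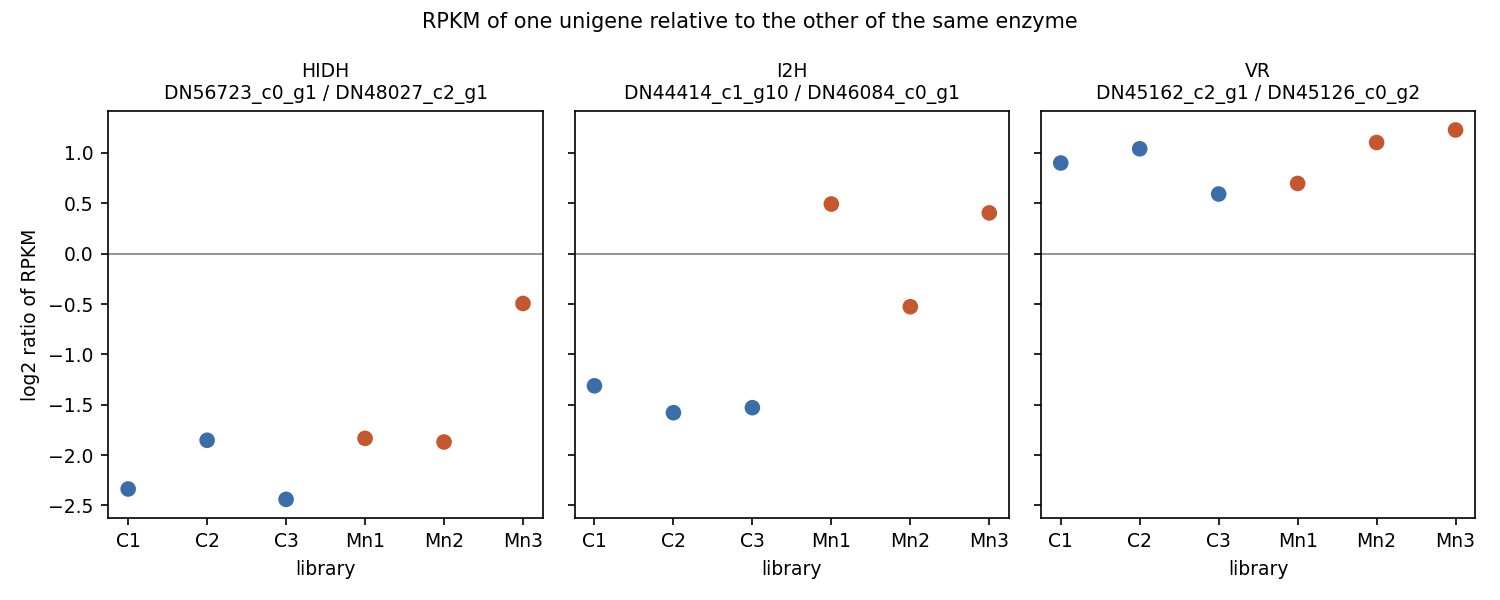
Log2 ratio of the RPKM of one unigene to the other unigene of the same enzyme (y axis) in each library (x axis; control blue, Mn toxicity red), with the line at 0 marking equal levels. The HIDH ratio stays below 0 and the VR ratio above 0 in all 6 libraries, while the I2H ratio is below 0 in the control libraries and crosses 0 in Mn toxicity libraries Mn1 and Mn3.

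Summed over its 2 unigenes, HIDH was 5.27 ± 0.488 RPKM in the control and 10.4 ± 1.81 RPKM under Mn toxicity (SD, n = 3). The 2 I2H unigenes had the lowest sum, 1.60 ± 0.113 RPKM in the control and 4.40 ± 0.398 RPKM under Mn toxicity. The 2 VR unigenes had the highest, with 14.1 ± 1.25 and 30.8 ± 3.61 RPKM. The order of these sums, VR above HIDH above I2H, was the same in both treatments. They cover only the 2 unigenes listed per enzyme, which were chosen for differing between the treatments. Any other unigenes of these enzymes in the assembly are not included, so the sums do not rank the enzymes.

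The assembler places unigenes whose sequences overlap in one component, and the ID names it. Such neighbours can be fragments, alleles or close relatives, they can share reads with a unigene described here, and they have no annotation in the sources used. Of the 6 unigenes, 4 had neighbours of this kind, 17 in all, of which 11 were expressed enough to be tested. HIDH DN56723_c0_g1 and VR DN45162_c2_g1 had none. The values of the neighbours were not used in the choice, but the 6 unigenes were chosen for differing between the treatments. Weaker changes among the neighbours are thus favoured by the choice, and nothing is read from that contrast. By limma 0 of the 11 neighbours were called, against 5.78% of all tested unigenes. At an unadjusted p under 0.05 (limma) were 2 of the 11, against 7529 of all 30913 tested unigenes. The count called was 2 without Mn toxicity replicate 2 (DN48027_c2_g2 and DN44414_c1_g5) and 1 without replicate 3 (DN46084_c0_g2), all lower. Over all tested unigenes these 2 fits called 4977 and 2848. For the 11 neighbours no more is read from these counts. Their median log2 fold change was 0.02. After median-of-ratios scaling 0 of the 11 were called and their log2 fold changes ran from -0.87 to 0.65, with a median of 0.19 and 2 of them at an adjusted p below 0.05 (limma).

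The treatments overlapped for 7 of the 11 neighbours, and the Mn toxicity libraries were all higher in 2 and all lower in 2. Of all tested unigenes 9.41% separated upwards, and the share downwards was not computed. In the component of HIDH DN48027_c2_g1, the unigene DN48027_c2_g2, of at least 385 bp, had 86.4, 84.6 and 81.9 RPKM in the control libraries and 48.9, 69.4 and 26.5 RPKM under Mn toxicity. All its Mn toxicity libraries were below the control libraries, the reverse of its HIDH neighbour, but the log2 fold change of -0.90 (SE 0.31) was not called (limma, adjusted p = 0.105, and 0.0017 to 0.305 over all settings). After scaling it was -0.66 (limma, adjusted p = 0.0087), short of the 2-fold limit. The other unigenes of that component, DN48027_c2_g3 and DN48027_c2_g4, were too low to test, at means below 0.2 RPKM. Beside I2H DN44414_c1_g10, the most abundant neighbours were DN44414_c1_g3 with 18.2 ± 1.84 and 24.0 ± 2.77 RPKM, DN44414_c1_g4 with 14.6 ± 0.854 and 19.5 ± 1.74 RPKM, and DN44414_c1_g7 with 3.20 ± 0.884 and 3.64 ± 0.580 RPKM in the control and under Mn toxicity (SD, n = 3). Their log2 fold changes were 0.39, 0.40 and 0.18 (limma, adjusted p = 0.283, 0.260 and 0.737), and after scaling 0.63, 0.65 and 0.41 (limma, adjusted p = 0.0401, 0.0798 and 0.401), none past the 2-fold limit. DN44414_c1_g7 is of nearly the same length as the I2H unigene, at least 1806 bp, and stood 7.51 times above it in the control means but only 1.60 times above it under Mn toxicity.

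In the component of I2H DN46084_c0_g1, both neighbours had negative log2 fold changes that were not called. DN46084_c0_g2 had 2.25, 1.18 and 1.37 RPKM in the control libraries and 0.624, 0.341 and 1.06 RPKM under Mn toxicity, without overlap (log2 fold change -0.85, SE 0.35; limma, adjusted p = 0.170). DN46084_c0_g3 went from a mean of 7.90 ± 1.43 to 5.42 ± 1.53 RPKM (SD, n = 3), with overlapping libraries (log2 fold change -0.52; limma, adjusted p = 0.278). Beside VR DN45126_c0_g2 stood DN45126_c0_g1, of nearly the same length (at least 1315 bp) and nearly the same control level, 5.56, 5.34 and 5.47 RPKM. Under Mn toxicity it had 5.98, 7.51 and 3.79 RPKM, on both sides of the control, with a log2 fold change of 0.03 (SE 0.29; limma, adjusted p = 0.967). DN45126_c0_g3 was at or near 0.

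**Figure D3:**
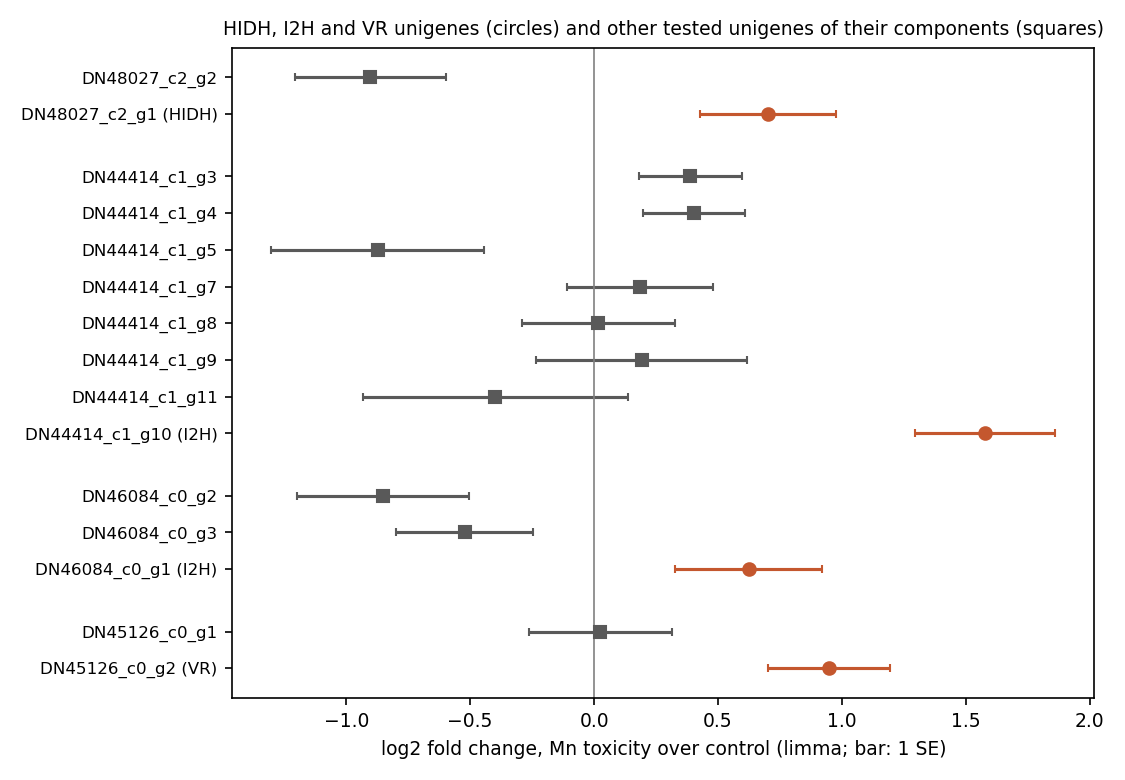
Log2 fold change of Mn toxicity over control (x axis, limma on log2(RPKM + 0.5), bars 1 SE) for the enzyme unigenes (red circles) and the tested unigenes of the same component (grey squares), grouped by component on the y axis. The enzyme unigene is the rightmost point of each of the 4 components, and the grey points lie between -0.90 and 0.40. The enzyme unigenes were chosen for differing between the treatments, which favours that order.

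The share of a component's summed RPKM that fell on the enzyme unigene needs no scaling between libraries. For HIDH DN48027_c2_g1 it was 4.42, 5.07 and 5.11% in the control libraries and 12.9, 12.3 and 17.2% under Mn toxicity. For I2H DN44414_c1_g10 it was 0.934 to 1.09% and 3.07 to 4.73%, and for I2H DN46084_c0_g1 10.1 to 12.2% and 23.4 to 27.6%. For VR DN45126_c0_g2 it was 45.1 to 52.8% and 59.6 to 70.0%. In all 4 components the share was higher under Mn toxicity without overlap, which the choice of these unigenes from genes that differed favours. Among the 21592 tested unigenes in components with at least 2 tested unigenes, 20.8% had such a higher share under Mn toxicity.

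Other steps of the pathway were followed in 25 unigenes, all taken from the study's lists of genes that differed in these libraries, so that their counts are not independent evidence of a direction. Of the 24 tested, 6 were called higher and 2 lower, and their median log2 fold change was 0.97. Over all tested unigenes 2.09% were called higher and 5.78% in either direction. When a control library or Mn toxicity replicate 1 was left out, 2 or 3 were called, and the count was 10 when replicate 2 and 12 when replicate 3 was missing. Over all 30913 tested unigenes the former fits called 289 to 423, and the latter 4977 and 2848. After median-of-ratios scaling 11 were called higher and 1 lower, against 4.37% of all tested unigenes called higher. Chalcone synthase (CHS), which builds the chalcone skeleton, went in both directions. CHS DN46875_c3_g5 rose from 1.24 to 3.77 RPKM (log2 fold change 1.27, SE 0.32), while DN44420_c1_g1 fell from 15.1 to 4.11 RPKM (log2 fold change -1.76, SE 0.23) and was far the more abundant of them in the control. The fall of DN44420_c1_g1 was called in all 22 settings. The third, DN42629_c5_g4, was called lower at -1.15 as deposited. After scaling its log2 fold change of -0.98 (limma, adjusted p = 0.0139) fell just short of the 2-fold limit, and with quantile normalization, at -1.01, it was called. Chalcone isomerase (CHI), which closes the ring of the chalcone, had log2 fold changes of 0.71 for DN45901_c1_g1 and 0.81 for DN45798_c1_g7, neither called. The description of DN45901_c1_g1 is only that of a hypothetical protein, so its place in this group is less sure.

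The isoflavone O-methyltransferases, which methylate hydroxyl groups of the isoflavone, were the largest group. As deposited 3 of 11 unigenes were called higher and after median-of-ratios scaling 6 of 11, and none lower. Over all tested unigenes these 2 fits called 2.09% and 4.37% higher. The highest log2 fold change was that of DN44956_c1_g12, from 0.587 ± 0.0795 to 4.69 ± 0.449 RPKM (SD, n = 3; 2.26, SE 0.27), and the lowest that of DN47159_c2_g3 (0.65), which was not called. Among 3 unigenes described as isoflavone reductase-like or as related benzylic ether reductases, DN46323_c2_g3 rose from 2.93 ± 0.404 to 7.52 ± 0.826 RPKM (SD, n = 3; log2 fold change 1.23), and the lowest log2 fold change, 0.75 for DN44492_c5_g3, was not called. In legumes, isoflavone reductase acts between I2H and VR. Of the carboxylesterase family, to which HIDH belongs, 1 of 3 tested unigenes was called higher, DN47280_c3_g1 with a log2 fold change of 1.17. The lowest was DN7933_c0_g1 with 0.58, whose description is only that of a hypothetical protein. The unigenes of anthocyanidin reductase (DN52696_c0_g1) and dihydroflavonol 4-reductase (DN44107_c5_g2), relatives of VR, had 0.97 and 1.60, and neither was called as deposited, with Mn toxicity replicate 3 far below the other two in both. After median-of-ratios scaling DN44107_c5_g2 was called higher (log2 fold change 1.81; limma, adjusted p = 0.0068), also with any 1 library left out, while DN52696_c0_g1 was not.

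**Figure D4:**
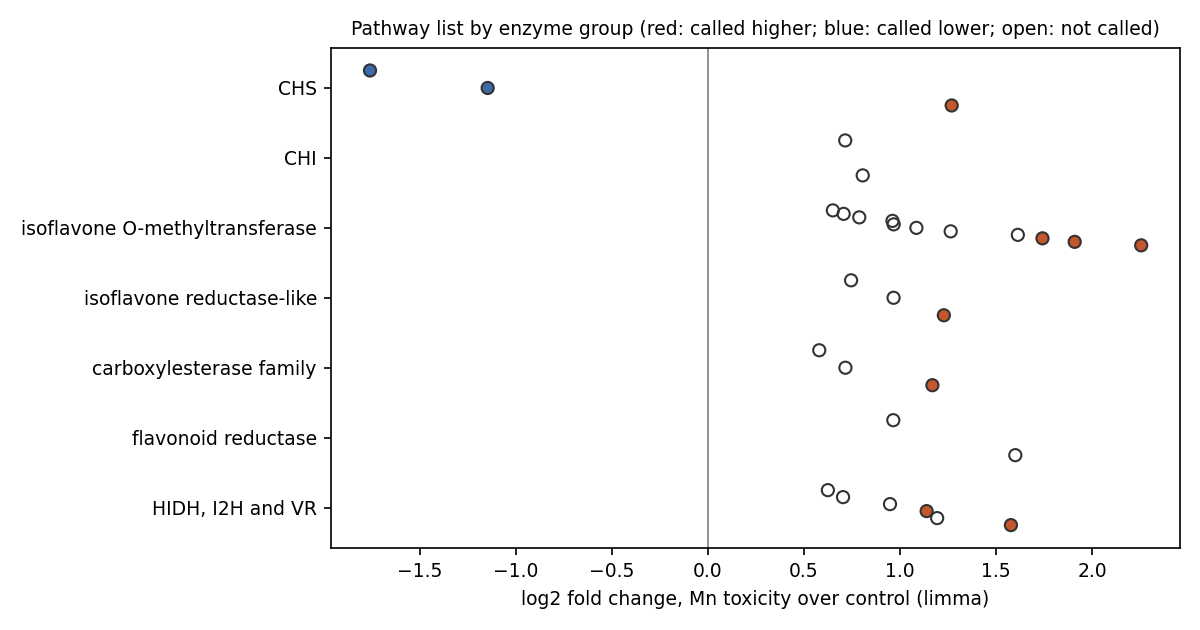
Log2 fold change of Mn toxicity over control (x axis, limma on log2(RPKM + 0.5)) for the tested unigenes of the pathway list by enzyme group and for the 6 unigenes of HIDH, I2H and VR (y axis), with red points called higher, blue points called lower and open points not called. The 2 blue CHS points are the only ones below 0, and the HIDH, I2H and VR points run from 0.62 to 1.58.

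Across the 6 libraries the 6 unigenes followed each other with Pearson's r of 0.67 to 0.95 over their 15 pairs, lowest for the 2 HIDH unigenes and highest for HIDH DN48027_c2_g1 with I2H DN46084_c0_g1. These points share the treatment and the library, so the values are descriptions. Among 1691 tested unigenes with a description in the study's lists, the profile most like that of I2H DN44414_c1_g10 was DN45349_c0_g1, described as the copper transport protein ATOX1 (r = 0.9996, 6 libraries), followed by DN28491_c0_g1, an uncharacterized protein, and DN39780_c0_g2, a lipid transfer protein. HIDH DN56723_c0_g1 was nearest to DN45645_c2_g10, an alternative oxidase of the mitochondrial respiratory chain (r = 0.98), then to DN4477_c0_g1, a XERICO-like ubiquitin ligase, and DN44700_c2_g1, a KIC-like calcium-binding protein. HIDH DN48027_c2_g1 was nearest to DN43046_c1_g1, with a helix loop helix DNA-binding domain, to DN47979_c0_g1, a zinc finger BED domain protein, and to DN47409_c2_g2, a disease resistance protein of the TIR-NBS-LRR class. I2H DN46084_c0_g1 was nearest to DN43662_c2_g3 and DN47193_c1_g1, both uncharacterized, and to DN47609_c1_g1, a dioxygenase. VR DN45162_c2_g1 was nearest to DN33626_c0_g1, a late embryogenesis abundant protein of group 6, to DN54386_c0_g1, a hypothetical protein, and to DN44760_c3_g2, a 1-deoxy-D-xylulose-5-phosphate synthase. VR DN45126_c0_g2 was nearest to DN42650_c3_g1, a bis(5'-adenosyl)-triphosphatase, to DN41901_c1_g1, uncharacterized, and to DN46146_c4_g1, a tonoplast dicarboxylate transporter-like protein. All these profiles rest on the same 6 libraries and their depth, and the 1691 candidates were listed by the study for differing between the treatments.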

How the data were processed

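According to the sample labels and the study's methods, clean reads were assembled with Trinity without a genome, mapped to the assembly with Bowtie2 2.2.3 and quantified with RSEM. The authors deposited the resulting RPKM, 1 table per library, and no further scaling is stated. RSEM divides reads that match several unigenes, so values of close relatives are uncertain. The labels give Mn in mM, the study design in μM, which was used.

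Whole reads and the shortest fitting lengths were recovered from the RPKM steps in Python 3.11.15 (pandas 2.3.3, numpy 2.4.6) and used for read numbers and Poisson intervals only. The reads given are those at the shortest fitting length, and a multiple of that length would fit with more reads. Whether a read pair counts once or more is not stated. Treatments were compared with limma 3.58.1 (R 4.3.3) on log2(RPKM + 0.5) with an intensity trend, two-sided, with Benjamini-Hochberg adjustment over the 30913 unigenes that averaged 0.5 RPKM or more. Called means past 2 limits, 0.05 for the adjusted p and 1 for the size of the log2 fold change. The code was tested on simulated data. The study itself used DESeq2, which needs counts, so its test was not repeated. Levels of 2 unigenes of an enzyme were compared by exact sign-flip permutation, adjusted over 3 enzymes.

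The 6 unigenes and the lists were chosen with earlier results of these data known. Named besides the 6 were the 3 most abundant neighbours of each component and any called, the highest and lowest log2 fold change of each pathway group, and the 3 described unigenes most correlated with each. Descriptions come from the study's tables, held here in part, and their fold changes and p-values were not used.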

Additional observations from a re-analysis of the deposited data

How the results depend on the processing

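The 6 unigenes were chosen for differing between the treatments, and in the unscaled RPKM every Mn toxicity value lay above every control value. Leaving out a library from these values could therefore not reverse a sign. Nor could another pseudocount, another minimum RPKM, a fit without the intensity trend or the replicate block. None of the 6 log2 fold changes changed sign under any of the 21 alternatives, which for the settings just named is no test. Their ranges were 0.90 to 1.62 (HIDH DN56723_c0_g1), 0.34 to 0.98 (HIDH DN48027_c2_g1), 1.19 to 2.17 (I2H DN44414_c1_g10), 0.34 to 0.93 (I2H DN46084_c0_g1), 0.75 to 1.54 (VR DN45162_c2_g1) and 0.58 to 1.35 (VR DN45126_c0_g2). The number of the 6 unigenes called, 2 as deposited, was 4 with median-of-ratios scaling, 4 with quantile normalization and 0 with every library at the same sum of RPKM. The pathway list, 8 called as deposited, then had 12, 13 and 4. Leaving out 1 library gave 0 to 3 of the 6 unigenes, 0 to 2 neighbours and 2 to 12 of the pathway list. Of the 6 unigenes, 0 were called once any control library or Mn toxicity replicate 1 was missing, and 3 when replicate 2 or 3 of Mn toxicity was left out. Over all tested unigenes the former fits called 148 to 213 higher, and those without replicates 2 and 3 called 802 and 1748. The cause was not tested. With median-of-ratios scaling and 1 library left out, an alternative chosen after seeing the data, 3 to 4 of the 6 unigenes, 0 to 1 neighbours and 7 to 19 of the pathway list were called. The mean log2 difference between the unigenes of an enzyme, with 1 library left out, was -1.71 to -1.42 for HIDH, -0.54 to -0.28 for I2H and 0.82 to 0.94 for VR. With 5 libraries the adjusted p cannot fall below the threshold, and it was 0.0938 for HIDH and VR. With the replicate number as a replicate block, 3 of the 6 unigenes, 0 neighbours and 11 of the pathway list were called. Deviations of same-numbered libraries correlated at 0.08, -0.15 and -0.08, and those of differently numbered libraries at -0.14 to 0.23. With 3 libraries per treatment these values cannot settle whether the numbers pair the libraries. Over all tested unigenes 1787 were called as deposited, 2515 with median-of-ratios scaling (1350 higher, 1165 lower, against 646 and 1141) and 289 to 4977 with 1 library left out. Reads limit I2H DN44414_c1_g10 and HIDH DN56723_c0_g1 most, with 81 and 119 control reads in all at the shortest fitting lengths.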
